A study of Mus musculus with 9 samples.

Results

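The transcripts described here are 33 genes of fatty acid synthesis and lipid droplets, taken as a fixed list and matched by Ensembl identifier among the 52550 genes of each deposited table. All 33 were found. They cover 7 roles, from transcriptional regulators of lipid synthesis to fatty acid uptake. Liver RNA was sequenced from mice of 3 genotypes, 3 libraries each, all at 320 days of age by the labels. The p53+/- group (called p53-heterozygous) carries a single working copy of the tumour suppressor gene Trp53. The Tsc1fl/fl;Alb-Cre group (called Tsc1-deleted) carries floxed Tsc1 and an albumin-promoter Cre recombinase, which is active in the hepatocyte lineage. The p53+/-;Tsc1fl/fl;Alb-Cre group (called double mutant) carries both. Every group carries an alteration of Trp53 or of Tsc1, and no unaltered liver was analysed here. The labels do not tie each library to its own animal, and the p-values therefore reflect library-to-library spread, which may be technical.

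Hepatocytes make fatty acids from citrate and glucose carbon, lengthen and desaturate them, join them to glycerol as triglyceride and store the triglyceride in droplets coated with perilipins and CIDE proteins. The transcription factors SREBP-1c (gene Srebf1) and ChREBP (gene Mlxipl) raise most of these genes after feeding, and INSIG proteins hold SREBP precursors in the endoplasmic reticulum. The kinase complex mTORC1, which the TSC complex restrains, is known to promote the processing of SREBP-1c.

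The targeted gene Tsc1 stood at 1.51, 2.81 and 1.32 rescaled FPKM (defined below) in the p53-heterozygous libraries. It was at 0.77, 0.96 and 0.91 in the Tsc1-deleted and at 1.02, 1.13 and 1.04 in the double-mutant libraries. The 6 libraries labelled floxed Tsc1 with Cre were thus lower after rescaling. The values 1.51 and 2.81 carry rescaling factors of 10.3 and 11.1, and as deposited both lay below the other genotypes. The 1.32 came from a library poor in hepatocyte transcripts (described below). Whole-gene values cannot show whether the floxed part was lost. Trp53 was at 5.45, 5.5 and 20.6, at 7.05, 8.98 and 15.66 and at 9.32, 5.83 and 6.9 in the same order, and the genotypes overlapped.

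The libraries were not alike in what else they held, and this bears on each value below. Read depth, estimated from the step that 1 read makes in the deposited values, was 10600000 to 18200000 reads per library. Nuclear protein-coding genes took 7.43% and 6.63% of the read signal in p53-heterozygous libraries 1 and 2, about 1050000 and 700000 reads, and 61.8% or more in the other 7. All levels are therefore given as rescaled FPKM, that is FPKM (fragments per length of gene and per library size) brought to the same nuclear protein-coding total of 282932 in every library. The factor was 10.3 and 11.1 in those libraries and 0.957 to 1.33 in the others. The 9 matched hepatocyte markers, as a sum, stood at 986 rescaled FPKM in p53-heterozygous library 3 and at 32295 to 54228 in the other 8. Albumin itself (gene Alb) was at 199.5 in that library and at 8368 or more in the rest. The same library held the highest sum of Kupffer cell and macrophage markers (1097 against 86.1 to 368.6) and of stellate cell and fibroblast markers (931.4 against 13.2 to 118.45). Lyz2 alone gave 932.7 of that 1097. Cd68, Adgre1 and Csf1r were also highest in that library, and Marco and Timd4 lay within the range of the others. The Kupffer cell markers Clec4f and Cd5l went the other way, at 0.29 and 0.13, the lowest of the 9 libraries. Krt19, a bile duct keratin, was at 279.6 and Col1a1, a fibroblast collagen, at 354 in that library, against at most 48.4 and 24.8 in the other 8. These values go against a label of ordinary liver tissue for p53-heterozygous library 3, and what tissue it held was not tested. Cholangiocyte markers summed to 149.0, 107.9 and 2545 in the p53-heterozygous, 529.4, 535.2 and 2602 in the Tsc1-deleted and 3515, 980.5 and 1530 in the double-mutant libraries. Spp1 alone gave most of every sum, with 2190 in p53-heterozygous library 3, 2563 in Tsc1-deleted library 3 and 3426 in double-mutant library 1. Krt19 was at 10.7 in Tsc1-deleted library 3 and at 32.95 in double-mutant library 1, so like sums did not mean like levels of each marker. In bulk tissue, fewer cells of a type and less RNA per cell cannot be told apart. Of 8 adipocyte markers, Adipoq, Lep and Retn were at 0 in all 9 libraries and Plin1 reached 0.01. The summed level of the 8 was 9.48 to 27.0 in the p53-heterozygous, 3.35 to 9.22 in the Tsc1-deleted and 1.6 to 8.92 in the double-mutant libraries. Fabp4 alone gave 12.0, 7.64 and 25.5 of the sums in p53-heterozygous libraries 1 to 3. It was at 1.82, 7.08 and 7.47 in the Tsc1-deleted and at 0.41, 5.17 and 7.59 in the double-mutant libraries. Endothelial markers summed to 25.1 to 34.9, 16.9 to 22.6 and 2.31 to 22.4 in the same order, with the low value in double-mutant library 1.

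Promoters of 4 of the genes are shown because much of what follows turns on their transcripts: Fasn and Gpam lead palmitate synthesis and glycerolipid assembly, Insig2 separates the p53-heterozygous group from the others, and Mlxipl is a regulator whose direction, like those of several other genes, depends on which p53-heterozygous libraries are used. Each run is the 250 bases before the most upstream RefSeq start on GRCm38.p6, 5′ to 3′, with matches to CCAAT (bound by NF-Y) and CACGTG (the E-box core) on either strand in capitals.
Fasn (chr11:120824548-120824797, minus strand): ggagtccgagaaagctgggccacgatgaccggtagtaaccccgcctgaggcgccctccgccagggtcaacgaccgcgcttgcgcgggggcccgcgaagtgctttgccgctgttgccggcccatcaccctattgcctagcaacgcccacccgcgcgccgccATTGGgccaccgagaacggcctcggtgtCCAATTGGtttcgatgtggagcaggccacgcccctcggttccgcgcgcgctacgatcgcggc
Insig2 (chr1:121332590-121332839, minus strand): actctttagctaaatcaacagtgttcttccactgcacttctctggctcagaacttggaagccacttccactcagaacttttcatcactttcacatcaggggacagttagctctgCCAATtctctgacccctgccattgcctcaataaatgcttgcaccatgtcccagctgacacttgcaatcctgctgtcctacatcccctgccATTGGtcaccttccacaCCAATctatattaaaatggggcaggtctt
Gpam (chr19:55127239-55127488, minus strand): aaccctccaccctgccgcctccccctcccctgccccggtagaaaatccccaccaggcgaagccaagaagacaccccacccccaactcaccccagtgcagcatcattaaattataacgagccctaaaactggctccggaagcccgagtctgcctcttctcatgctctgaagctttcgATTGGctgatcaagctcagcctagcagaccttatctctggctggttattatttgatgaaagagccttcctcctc
Mlxipl (chr5:135089640-135089889, plus strand): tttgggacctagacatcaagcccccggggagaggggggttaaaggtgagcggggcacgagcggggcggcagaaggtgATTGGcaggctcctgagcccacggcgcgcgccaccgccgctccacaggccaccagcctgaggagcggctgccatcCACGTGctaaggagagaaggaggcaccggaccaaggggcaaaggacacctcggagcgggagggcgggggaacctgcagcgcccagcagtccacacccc
The deposited tables were made on mm9, so these coordinates belong to the RefSeq table and not to the measurements. RefSeq windows were matched for 27 of the 33 genes. CCAAT was present in 14 of the 27 windows and in 34.5% of all 27026 windows of that length. Fasn held 3 matches, at 90, 62 and 59 bases before the start, where the neighbouring matches at 62 and 59 overlap on opposite strands. Insig2 held 3, at 136, 46 and 29 bases. CACGTG was found in the windows of Elovl5, Mlxipl and Pnpla5, against 6.04% of all windows. TCACNCCAC, a core of the sterol regulatory element, was in 0 of the 27 windows and in 1.03% of all windows. A match is a description of these letters only.

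Of the 33 genes, 28 had at least 1 rescaled FPKM in at least 3 of the 9 libraries and were tested. The 5 that were not are Elovl3 (elongation of very long chains), Mogat1 (a monoacylglycerol acyltransferase), Cidea (a droplet fusion protein) and the lipase genes Pnpla3 and Pnpla5. Pnpla5 was highest at 0.09 rescaled FPKM, and Pnpla3 and Cidea reached 1.32 and 1.34. Elovl3 stood at 27.06 in p53-heterozygous library 1 and at 3.24 or less in the other 8 libraries.

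**Figure D1:**
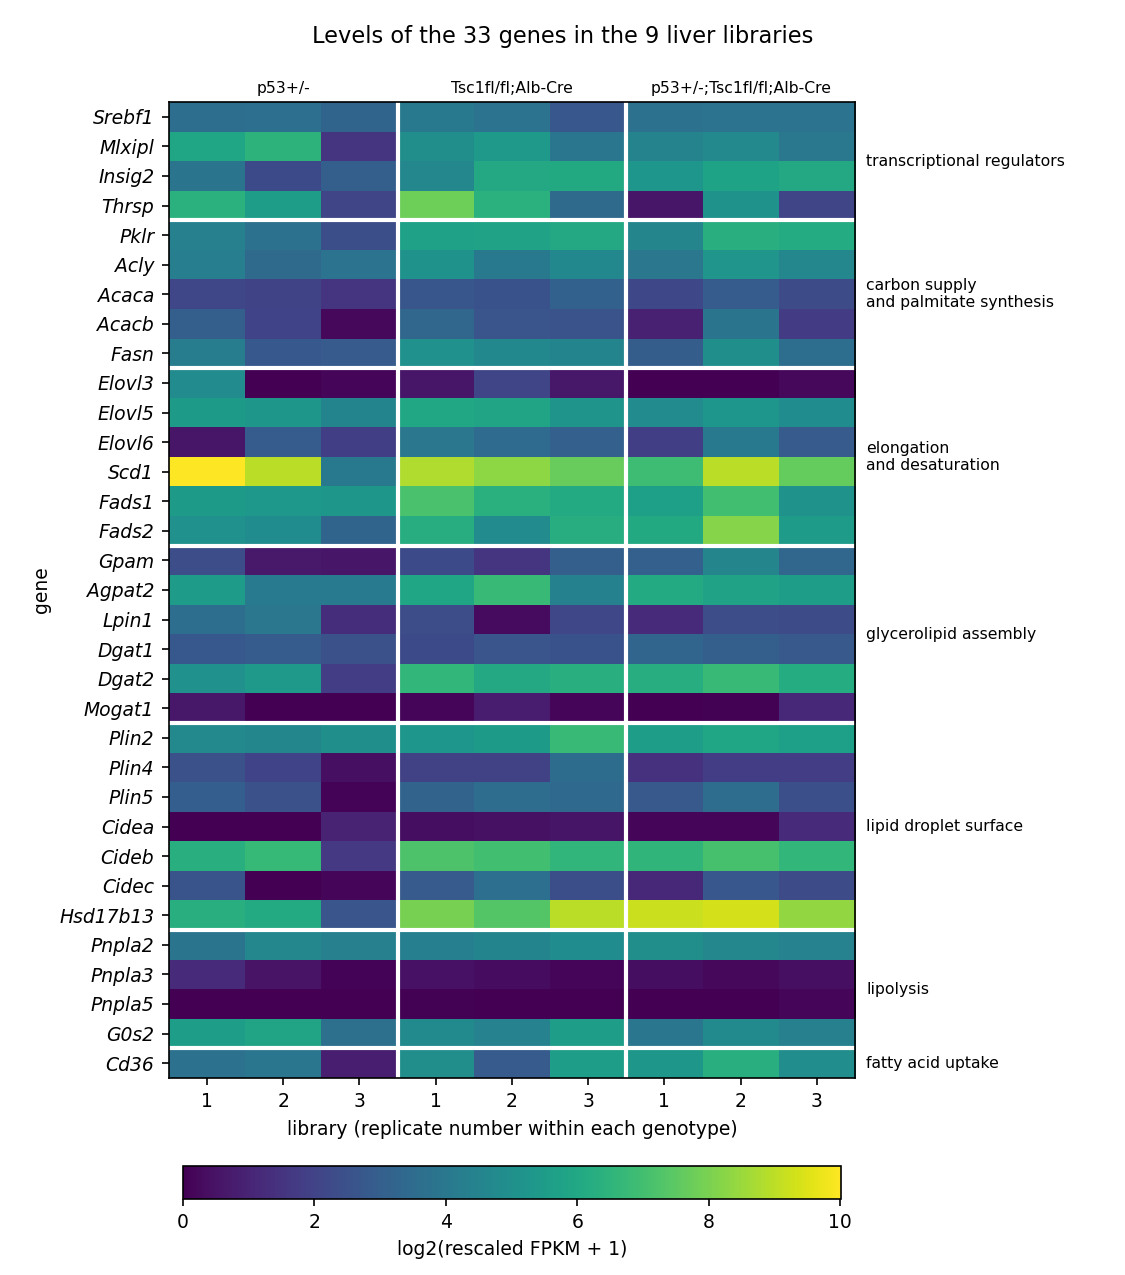
Colour gives log2(rescaled FPKM + 1) of each of the 33 genes (rows, grouped by role) in each of the 9 libraries (columns, by genotype and replicate). Scd1 and Hsd17b13 are the brightest rows, and p53-heterozygous library 3 is dark for Hsd17b13, Cideb, Dgat2 and Plin5.

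No gene of the set passed the test in any of the 3 comparisons. The test was limma on log2(rescaled FPKM + 1) over 12591 genes, with only the 6 libraries compared and Benjamini-Hochberg adjusted p under 0.05. Between double-mutant and Tsc1-deleted livers 0 of 28 passed, where 0.0238% of all genes did (0.0159% higher and 0.00794% lower in the double mutant). Between double-mutant and p53-heterozygous livers 0 of 28 passed, where 0.421% did (0.31% higher and 0.111% lower). Between Tsc1-deleted and p53-heterozygous livers 0 of 28 passed, where 0.0556% did (0.0397% higher and 0.0159% lower), that is 7 genes, or 2 with the replicate number as a block. At an unadjusted p under 0.05 there were 2, 8 and 7 of the 28, where 12.5%, 18.7% and 12.7% of all genes were. Every log2 change below is a difference on that log2 scale, which understates the change of low genes.

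Setting double-mutant beside Tsc1-deleted livers addresses the p53 allele on a background of floxed Tsc1 with the Cre recombinase. Levels of most of the set overlapped. The 28 had a median log2 change of -0.185 and all tested genes one of 0.26. With median-ratio factors these were -0.536 and 0.000504. Cholangiocyte markers had 5 of 5 positive estimates here, with Krt19, Krt7 and Epcam above without overlap, and hepatocyte markers 7 of 9 negative. Their part in the result was not tested. Positive estimates were found for 11 of the 28 and for 74% of all tested genes.

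Gpam encodes a glycerol phosphate acyltransferase that commits acyl groups to triglyceride. It stood at 3.76, 1.83 and 7.12 rescaled FPKM in Tsc1-deleted libraries 1 to 3 and at 7.44, 22.46 and 8.81 in the double mutant. The groups did not overlap, though Tsc1-deleted library 3 and double-mutant library 1 were close. The log2 change was 1.38 (SE 0.50). Its limma adjusted p = 0.398 ran from 0.07 to 0.9997 over the alternatives.

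Dgat1 encodes an acyltransferase of the last step of triglyceride synthesis. It was at 3.78, 5.2 and 4.74 in the Tsc1-deleted and at 8.58, 7.14 and 5.89 in the double-mutant libraries, also without overlap (log2 change 0.55, SE 0.26, limma adjusted p = 0.405). Gpam and Dgat1 were the 2 of 28 with every double-mutant value above every Tsc1-deleted value, where 12.9% of all genes did. Plin4, a perilipin of the droplet surface, was the 1 gene that lay below without overlap (3.42% of all genes). It stood at 2.84, 2.94 and 10.58 against 1.66, 2.56 and 2.48, so the gap rests on a narrow margin (log2 change -0.80, SE 0.43, limma adjusted p = 0.425).

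Thrsp encodes Spot 14, a small protein that promotes lipid synthesis. It spread widest, at 222.6, 83.2 and 9.86 rescaled FPKM in the Tsc1-deleted and 0.51, 32.9 and 3.23 in the double-mutant libraries. The groups overlapped, since Tsc1-deleted library 3 was below double-mutant library 2 (log2 change -3.29, SE 1.33, limma adjusted p = 0.398). Elovl5, which lengthens polyunsaturated fatty acids, was at 61.7, 56.2 and 35.6 against 27.1, 37.0 and 28.4 (log2 change -0.69, SE 0.30, limma adjusted p = 0.398). Its Tsc1-deleted library 3 and double-mutant library 2 set the overlap.

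The other regulators did not separate these genotypes. Srebf1 was at 15.3, 13.2 and 5.51 in the Tsc1-deleted and at 12.5, 13.2 and 12.9 in the double-mutant libraries, and all 3 double-mutant values lay within the Tsc1-deleted range. Mlxipl was at 29.9, 40.4 and 14.1 against 21.3, 25.4 and 15.1. Insig2 was at 24.0, 64.5 and 67.0 against 37.7, 55.6 and 65.5. The 3 genes had log2 changes of 0.27, -0.34 and 0.13, and those of Srebf1 and Insig2 turned negative with median-ratio factors (-0.06 and -0.22).

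Carbon supply and palmitate synthesis held 5 tested genes, and all 5 estimates were negative, although that of Acly was -0.01 and turned to 0.01 on the values as deposited. Fasn, the synthase that makes palmitate, was at 32.8, 24.8 and 21.6 in the Tsc1-deleted and at 6.74, 30.3 and 11.1 in the double-mutant libraries (log2 change -0.92, SE 0.48, limma adjusted p = 0.421). Double-mutant library 2 lay inside the Tsc1-deleted range and the other 2 below it. Acacb, a carboxylase that makes malonyl-CoA at mitochondria, showed the same order at 8.86, 5.28 and 4.93 against 0.89, 13.58 and 2.32. The liver pyruvate kinase gene Pklr was at 52.2, 54.0 and 65.1 against 22.3, 75.5 and 69.9. Acaca, the cytosolic carboxylase, was at 5.42, 4.69 and 7.52 against 3.5, 6.57 and 4.02, and Acly, which frees acetyl-CoA from citrate, averaged 24.5 ± 8.96 against 24.8 ± 10.9 (SD, n = 3 each).

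Among desaturases and elongases 4 of 5 estimates were negative. Scd1, which puts a double bond into stearate and palmitate, was at 450.7, 318.2 and 203.5 against 118.5, 495.7 and 199.7. Elovl6, which lengthens palmitate to stearate, was at 14.7, 10.3 and 7.48 against 2.58, 15.6 and 6.35. Fads1, a desaturase of polyunsaturated fatty acids, was at 140.4, 81.0 and 68.0 against 49.0, 126.6 and 34.5. In all of these double-mutant library 2 was the highest of its group and within or above the Tsc1-deleted range. Fads2, the partner desaturase of Fads1, had the positive estimate of 0.82 (SE 0.71), with 292.9 in double-mutant library 2 against 66.2 and 43.7 in libraries 1 and 3.

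Glycerolipid assembly had 5 of 5 positive estimates, where 74% of all tested genes had one. Those of Agpat2 and Dgat2 were small, at 0.13 and 0.07, and negative with median-ratio factors (-0.22 and -0.28) and with the 100 highest genes left out of the total (-0.01 and -0.06). Lpin1, a phosphatidate phosphatase, was at 4.14, 0.23 and 3.41 in the Tsc1-deleted and at 1.36, 4.1 and 3.88 in the double-mutant libraries. Dgat2, the main acyltransferase for newly made fatty acids in liver, averaged 80.5 ± 17.1 and 85.3 ± 21.7 (SD, n = 3 each).

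On the droplet surface 5 of 6 estimates were negative and Hsd17b13 was the exception. Hsd17b13, a liver enzyme that sits on droplets, was at 249.1, 160.4 and 504.9 in the Tsc1-deleted and 594.5, 658.8 and 334.1 in the double-mutant libraries (log2 change 0.90, SE 0.47, limma adjusted p = 0.419). Double-mutant library 3 lay within the Tsc1-deleted range. Cidec, a fusion protein of large droplets, was at 6.42, 11.45 and 4.26 against 1.24, 5.49 and 3.96 (log2 change -0.92, SE 0.46, limma adjusted p = 0.41). Plin2, the droplet coat present in most hepatocytes, averaged 62.2 ± 37.9 and 52.2 ± 6.84, with 105.8 in Tsc1-deleted library 3. Cideb, which helps to lipidate very low density lipoprotein, averaged 123.1 ± 26.1 and 109.6 ± 23.8, and Plin5, a perilipin that links droplets to mitochondria, 9.54 ± 1.4 and 7.1 ± 3.36 (SD, n = 3 each).

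Lipolysis and uptake overlapped between the genotypes as well. Pnpla2, the main triglyceride lipase, averaged 23.1 ± 4.95 and 24.6 ± 4.62 (log2 change 0.09, and -0.25 with median-ratio factors), and its inhibitor G0s2 31.2 ± 14.1 and 19.9 ± 5.94 (SD, n = 3 each). Cd36, a fatty acid carrier of the cell surface, was at 30.04, 6.27 and 46.54 against 38.4, 76.8 and 28.8 (log2 change 1.03, SE 0.69, limma adjusted p = 0.476).

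**Figure D2:**
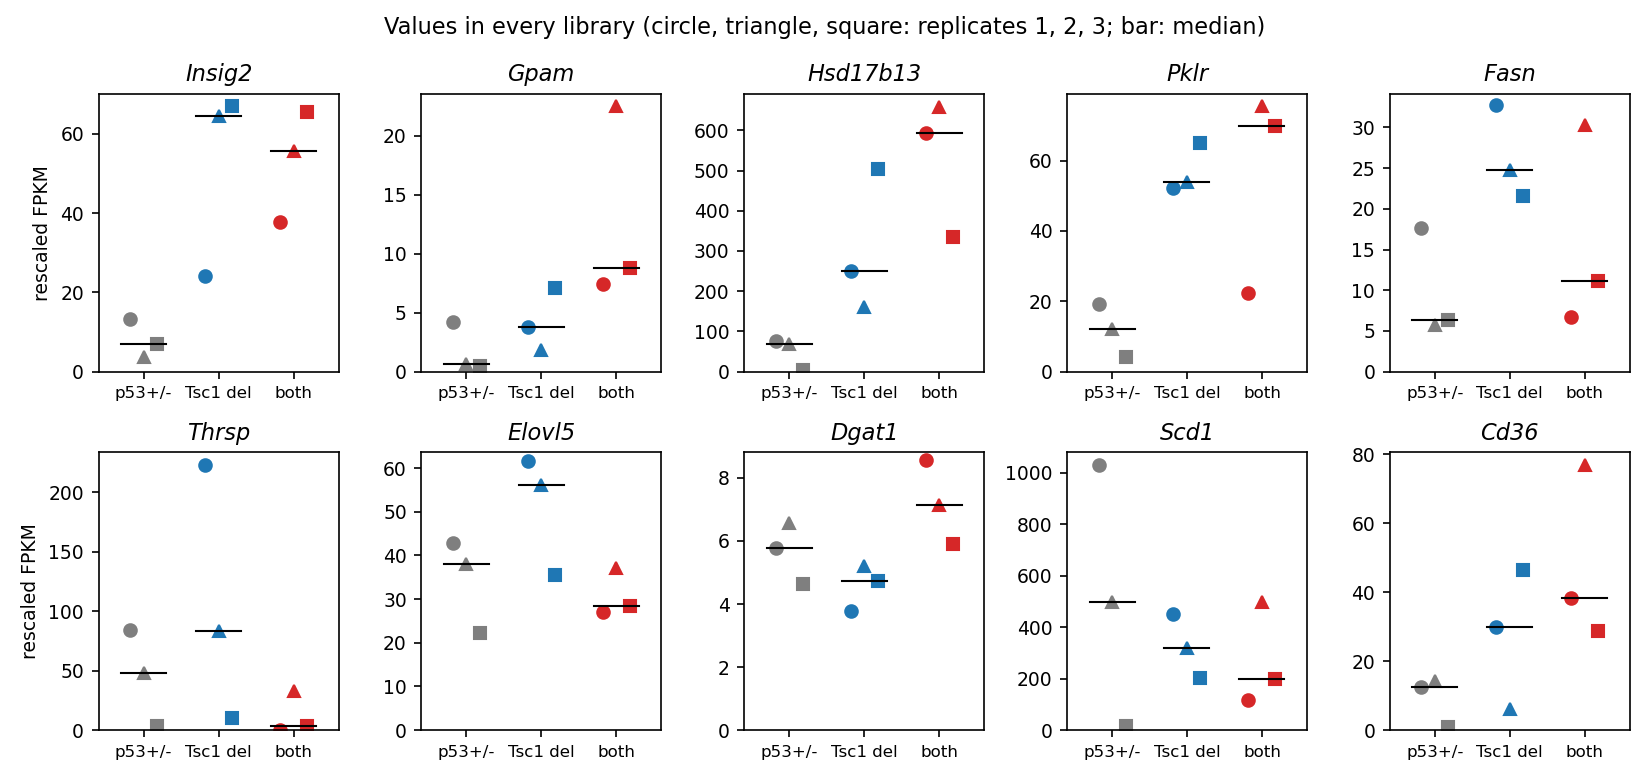
Each panel gives rescaled FPKM of a gene in the 9 libraries, with genotype on the horizontal axis (both, the double mutant) and a bar at the median. Insig2 and Hsd17b13 lie lowest in the p53-heterozygous libraries, and Fasn and Scd1 of double-mutant library 2 (triangle) sit above those of libraries 1 and 3.

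Within the double mutant most of the set shared 1 order of libraries. Library 2 was the highest of the 3 for 24 of the 28 genes, where it was so for 26.2% of all tested genes. Library 1 was the lowest for 18 of the 28, against 23.7% of all genes. Library 2 was the lowest for 0 of the 28, against 45.2% of all genes. The 4 genes highest elsewhere were Dgat1, Pnpla2 and Agpat2 in library 1 and Insig2 in library 3. The SD of log2 levels within the double mutant had a median of 0.55 over the 28 genes and 0.284 over all genes. Xist, the RNA of the inactive X chromosome, was at 24.9, 0.01 and 28.4 rescaled FPKM in double-mutant libraries 1 to 3, and the Y-linked gene Eif2s3y at 0, 8.0 and 0, so library 2 also differed in these transcripts. The labels give no sex. Stellate cell and fibroblast markers summed to 13.2, 72.5 and 101.6 and Kupffer cell and macrophage markers to 197.6, 105.1 and 368.6 in the same libraries. The part of these in the spread was not tested.

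The Tsc1-deleted libraries did not share 1 order. Library 1 was highest for 12 genes, among them Fasn, Acly, Scd1, Elovl6, Elovl5, Fads1 and Srebf1. Library 3 was highest for 11, among them Plin2, Plin4, Hsd17b13, Pnpla2, G0s2, Gpam and Cd36, and lowest for 12 (15.3% of all genes), among them Srebf1, Fasn, Scd1 and Elovl6. Over all tested genes libraries 1 and 3 were highest for 11.6% and 70.6%. Xist was at 24.0, 0.01 and 0 in Tsc1-deleted libraries 1 to 3. In p53-heterozygous libraries 1 to 3 it was at 0.23, 76.81 and 0.24, with Eif2s3y at 9.42, 0 and 16.25. Xist presence as a covariate was an alternative chosen after seeing the data. With it the median log2 change of the 28 in the double mutant minus Tsc1-deleted comparison was -0.0861. In that fit 0 passed (limma), and 1 had an unadjusted p under 0.05, against 9.09% of all tested genes.

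**Figure D3:**
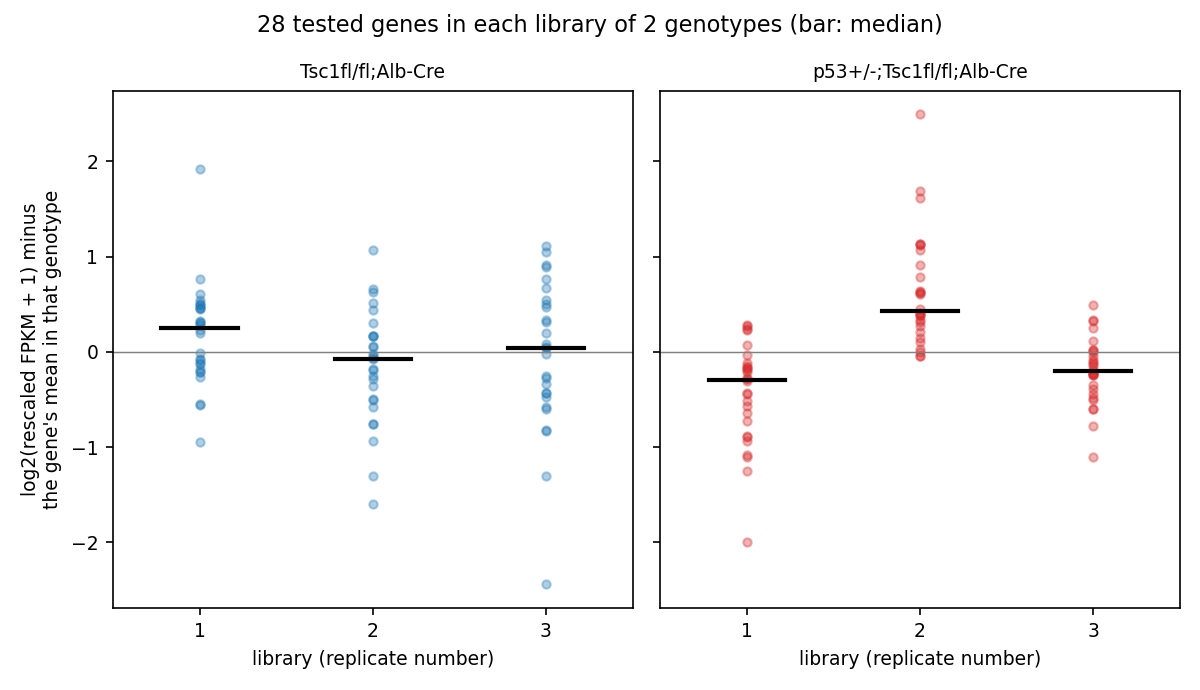
Points give log2(rescaled FPKM + 1) of the 28 tested genes, each minus that gene's mean over the 3 libraries of the genotype, with a bar at the median, for the Tsc1-deleted and double-mutant libraries. In the double mutant nearly all points of library 2 lie above 0, and library 2 was the highest for 24 of 28 genes.

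Setting double-mutant and Tsc1-deleted livers beside p53-heterozygous livers addresses the targeting of Tsc1. By the labels the double mutant differs from the p53-heterozygous group in floxed Tsc1 and in the Cre recombinase, whose effects cannot be told apart. The Tsc1-deleted group differs in the p53 allele as well, so the effects of that allele cannot be told apart there either. Both comparisons use the same p53-heterozygous libraries. In the double mutant 11 of 28 lay above without overlap and 0 below, where 16.6% and 11.1% of all genes did. The 11 were Insig2, Srebf1, Pklr, Acaca, Fads2, Gpam, Agpat2, Dgat2, Plin2, Hsd17b13 and Cd36. In the Tsc1-deleted liver 10 lay above and 0 below, where 8.33% and 13.7% of all genes did. The 10 were Insig2, Pklr, Acaca, Fasn, Fads1, Elovl6, Dgat2, Plin2, Plin5 and Hsd17b13. The median log2 change of the 28 was 0.66 and 1.09, and that of all tested genes 0.15 and -0.13. Hepatocyte markers had 9 of 9 positive and stellate cell and fibroblast markers 8 of 8 negative estimates in each comparison. As a sum, however, hepatocyte markers stood at 50461, 54228 and 986 in p53-heterozygous libraries 1 to 3 and at 32295 to 49996 in the other genotypes. Ahsg and Hpx lay above the p53-heterozygous libraries without overlap in both comparisons, and Cps1 and Ttr in the Tsc1-deleted liver. The other hepatocyte markers overlapped. None of the 28 passed, and p53-heterozygous library 3, poor in hepatocyte transcripts, was the lowest of its group for 21 of the 28 (22.2% of all genes).

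Insig2, which encodes an endoplasmic reticulum anchor of SREBP precursors, was at 13.29, 3.72 and 7.1 rescaled FPKM in p53-heterozygous libraries 1 to 3, from an estimated 63, 12 and 246 reads. The lowest value in the other groups was 24.0. The log2 change was 2.69 (SE 0.52) in the double mutant and 2.56 (SE 0.61) in the Tsc1-deleted liver. It had the lowest p of the set in both, with limma adjusted p = 0.0831 (0.0062 to 0.319 over the alternatives) and 0.197 (0.0098 to 0.58). Without p53-heterozygous library 3 the log2 changes were 2.68 and 2.55. That in the double mutant passed (limma adjusted p = 0.018), where 17.8% of all genes rose and 6.64% fell. With library 3, poor in hepatocyte transcripts, as the only p53-heterozygous library the log2 changes were 2.7 and 2.57. A fit of that kind assumes that the lone library varies like the other group.

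Hsd17b13 was at 75.7, 68.6 and 5.22 in the p53-heterozygous libraries, below 160.4 to 504.9 in the Tsc1-deleted and 334.1 to 658.8 in the double-mutant libraries. The log2 change was 3.98 (SE 1.03, limma adjusted p = 0.114) in the double mutant and 3.09 (SE 1.04, limma adjusted p = 0.283) in the Tsc1-deleted liver. Without library 3 they were 2.8 and 1.9. The former passed (limma adjusted p = 0.00978), where 17.8% of all genes rose and 6.64% fell. Library 3 thus set part of the size, while all 6 other values lay above libraries 1 and 2 as well.

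Pklr was at 19.3, 12.2 and 4.29 in the p53-heterozygous libraries, against 52.2 to 65.1 and 22.3 to 75.5 in the Tsc1-deleted and double-mutant libraries. The log2 change was 2.36 (SE 0.58, limma adjusted p = 0.197) in the Tsc1-deleted and 2.16 (SE 0.69, limma adjusted p = 0.169) in the double-mutant liver. Without library 3 it passed in the Tsc1-deleted liver, the 1 gene of the set to do so (log2 change 1.82, adjusted p = 0.0197), where 2.57% of all genes rose and 3.07% fell. Gpam was at 4.17, 0.62 and 0.51, from an estimated 38, 4 and 34 reads, and its log2 change in the double mutant was 2.42 (SE 0.62, limma adjusted p = 0.114).

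Fasn was at 17.7, 5.76 and 6.4 in the p53-heterozygous libraries, below all 3 Tsc1-deleted values, and library 1 lay within the double-mutant range of 6.74 to 30.3. The log2 change was 1.47 (SE 0.52, limma adjusted p = 0.306) in the Tsc1-deleted and 0.55 (SE 0.65, limma adjusted p = 0.705) in the double-mutant liver. Elovl6 was at 0.54, 6.57 and 2.59 and Fads1 at 42.9, 39.9 and 38.1, both below every Tsc1-deleted library. For Elovl6 the margin was narrow, with 7.48 in Tsc1-deleted library 3, and its values came from an estimated 5, 40 and 166 reads. Acaca was at 3.33, 3.19 and 1.9, from an estimated 78, 52 and 324 reads. These lay below every other library, but double-mutant library 1 was close at 3.5.

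Scd1 and Mlxipl ran the other way in the p53-heterozygous libraries that hold hepatocyte transcripts. Scd1 was at 1029 and 497.6 in libraries 1 and 2 and at 15.7 in library 3, against 118.5 to 495.7 in the other genotypes. Library 2 was thus barely above the highest of these. The log2 change of Scd1 in the double mutant was 0.16 with all 3 libraries (limma adjusted p = 0.974). It was -1.65 without library 3 (limma adjusted p = 0.113) and 3.77 with library 3 alone. Mlxipl, the gene of ChREBP, was at 59.5, 88.3 and 1.92, against 14.1 to 40.4 in the other genotypes. Its log2 change in the double mutant was -0.25 (limma adjusted p = 0.942), was -1.80 and passed without library 3 (adjusted p = 0.0167), and was 2.86 and passed with library 3 alone (adjusted p = 0.0142). The direction of both genes therefore rests on which p53-heterozygous library is used, and on the rescaling. On the values as deposited the log2 changes of Scd1 and Mlxipl in the double mutant were 2.57 and 2.02. In the double mutant minus p53-heterozygous comparison 6 other genes also had a negative estimate without library 3 and a positive one with library 3 alone. They were Thrsp (-3.42 and 0.49), Lpin1 (-1.84 and 0.63), G0s2 (-1.37 and 0.64), Plin4 (-0.56 and 1.27), Elovl5 (-0.39 and 0.45) and Acacb (-0.36 and 1.95).

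Without p53-heterozygous library 3, the double mutant had 5 members that rose and 3 that fell, where 17.8% of all genes rose and 6.64% fell. Insig2, Hsd17b13, Plin2, Dgat2 and Cd36 rose, and Mlxipl, Lpin1 and G0s2 fell. Dgat2 was at 32.4 and 40.6 in libraries 1 and 2, and at 2.48 in library 3, against 71.5 to 110.3 in the double mutant (log2 change 1.18, adjusted p = 0.0406). Plin2 was at 25.1 and 22.9 there, and at 30.3 in library 3, against 47.6 to 60.0 (log2 change 1.08, adjusted p = 0.0311). Cd36 was at 12.4 and 14.2, and at 0.79 in library 3, against 28.8 to 76.8 (log2 change 1.66, adjusted p = 0.039). Lpin1 was at 11.3 and 14.7, and at 1.51 in library 3, against 1.36 to 4.1 (log2 change -1.84, adjusted p = 0.024), and G0s2 at 47.6 and 56.0, and at 12.06 in library 3, against 14.1 to 26.0 (log2 change -1.37, adjusted p = 0.0298). With library 3 as the only p53-heterozygous library, 12 of 28 rose and 0 fell in the double mutant, where 9.5% of all genes rose and 17.1% fell, and 14 of 28 rose and 0 fell in the Tsc1-deleted liver, where 8.55% rose and 20.7% fell. The calls without library 3 rest on 2 libraries with about 1050000 and 700000 nuclear protein-coding reads.

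The remaining genes overlapped between the p53-heterozygous and other groups in at least 1 comparison or differed little. Srebf1 was at 11.1, 11.5 and 8.39, just below the double-mutant values of 12.5 to 13.2 and inside the Tsc1-deleted range. Dgat1 was at 5.78, 6.56 and 4.64 and Pnpla2 at 13.4, 23.6 and 19.5, with log2 changes of -0.26 to 0.39 over the 2 comparisons. Cideb, at 76.2, 103.8 and 2.13, and Plin5, at 6.86, 4.53 and 0.08, were low in library 3. Fads2 was at 32.7, 28.1 and 8.41, below every double-mutant library, and Agpat2 at 45.1, 16.6 and 16.1, just below the double-mutant low of 47.3. Acly was at 18.36, 10.02 and 12.96, Elovl5 at 42.9, 38.0 and 22.1 and Thrsp at 84.1, 47.6 and 3.29. Plin4 was at 4.52, 3.05 and 0.33, Cidec at 5.03, 0 and 0.11 and Acacb at 7.22, 3.06 and 0.17.

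**Figure D4:**
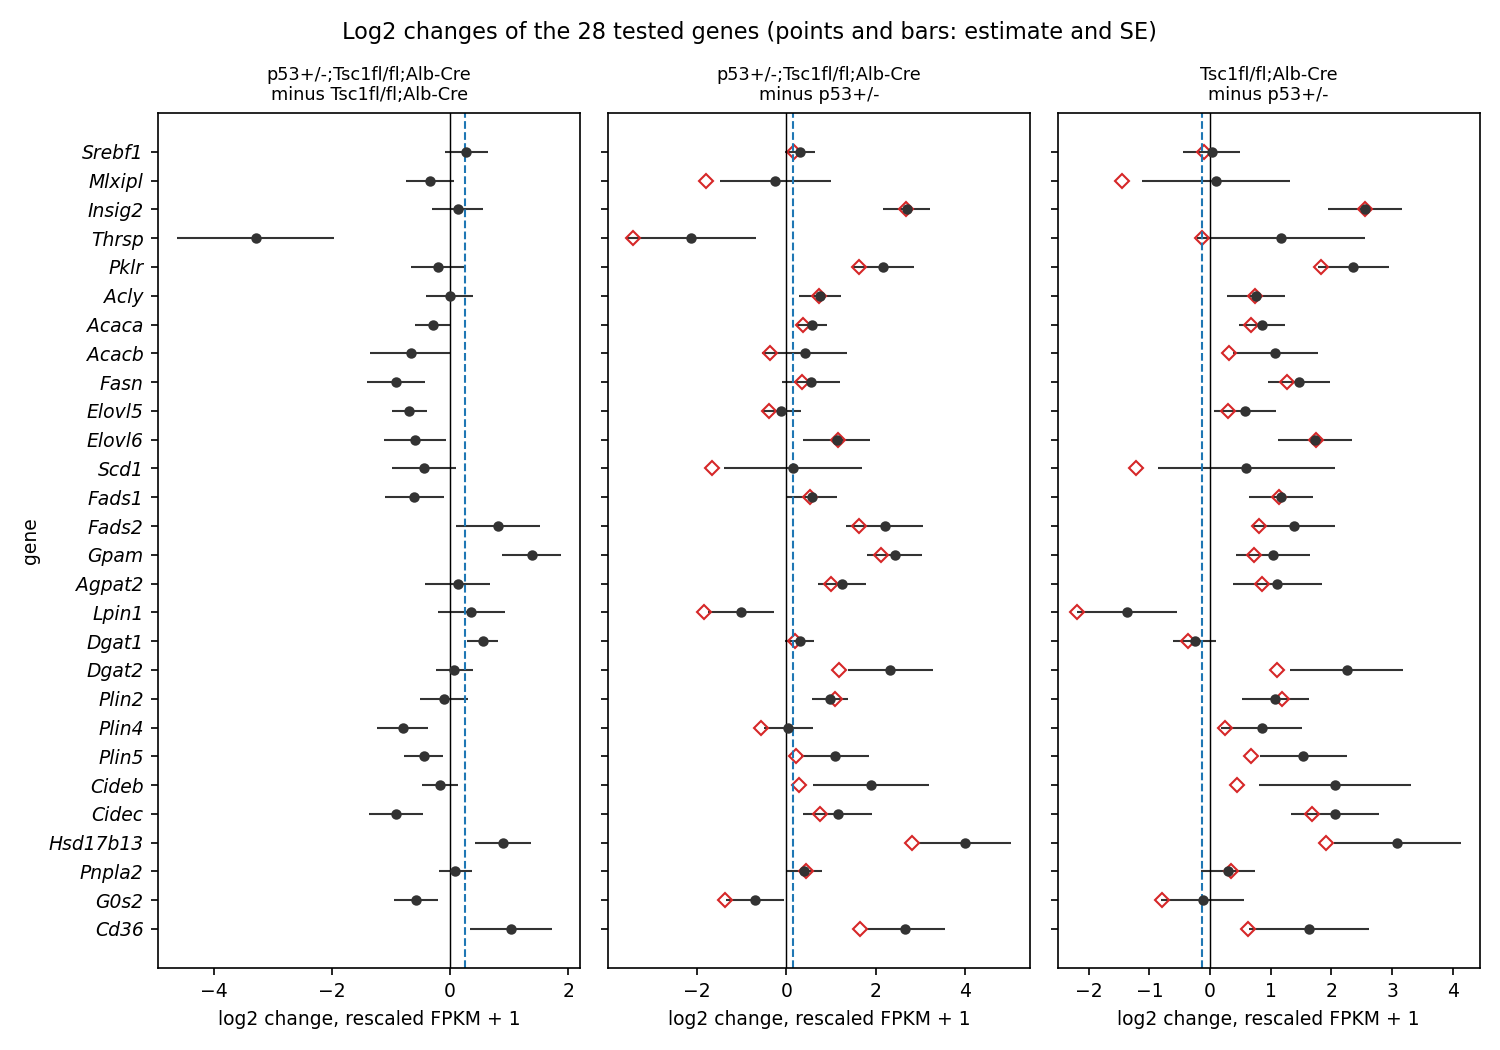
Black points and bars give the log2 change and SE of the 28 tested genes in 3 comparisons, red diamonds the log2 change without p53-heterozygous library 3, and the dashed line the median of all tested genes. Insig2 stays at 2.68 without that library, while Scd1 and Mlxipl move to -1.65 and -1.80 in the double mutant minus p53-heterozygous comparison.

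On the values as deposited, the p53-heterozygous comparisons look different. All tested genes then had a median log2 change of 1.38 in the double mutant and 1.07 in the Tsc1-deleted liver, and all 28 estimates were positive in both. In the double mutant 10 of 28 rose (limma), where 9.18% of all genes rose and 0.2% fell: Insig2, Hsd17b13, Pklr, Gpam, Dgat2, Fads2, Cd36, Cideb, Plin5 and Cidec. In the Tsc1-deleted liver 0 of 28 rose, where 0.166% of all genes did and 0% fell. There 24 of 28 had an unadjusted p under 0.05 (limma), against 22.3% of all tested genes. With the spread shared over all 9 libraries after rescaling, Insig2 and Hsd17b13 rose in the double mutant (adjusted p = 0.031 and 0.0456), where 2.46% of all genes rose and 2.28% fell. In the Tsc1-deleted liver 0 of 28 passed in that fit, where 0.318% of all genes rose and 0.794% fell. In the same fit 10 of 28 had an unadjusted p under 0.05 (limma), against 18.2% of all tested genes.

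Other genes of the pathway, listed with the set, gave the same result: none passed in any of the 3 comparisons (limma). Positive estimates in double-mutant minus p53-heterozygous livers were found for 13 of 15 further regulators, 19 of 19 genes of acyl synthesis and NADPH supply, 16 of 23 glycerolipid and droplet genes and 9 of 11 uptake genes, where 58.1% of all tested genes had one. Among the regulators Pparg, a nuclear receptor of fat storage, had the lowest p in both p53-heterozygous comparisons, at 0.94, 0.69 and 2.4 against 3.26, 3.86 and 13.5 in the Tsc1-deleted (limma adjusted p = 0.307) and 1.72, 5.75 and 7.14 in the double-mutant libraries (limma adjusted p = 0.251). Srebf2, the cholesterol-pathway relative of Srebf1, had the lowest p between the double-mutant and Tsc1-deleted livers (log2 change 0.69, limma adjusted p = 0.405).

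Among 19 genes of acyl synthesis and NADPH supply, Scd2, a desaturase, was at 16.2, 11.4 and 29.2 in the Tsc1-deleted and 39.0, 43.6 and 97.8 in the double-mutant libraries without overlap (log2 change 1.59, limma adjusted p = 0.398). Acsl4, an acyl-CoA synthetase, led against the p53-heterozygous liver in the double mutant (log2 change 1.74, limma adjusted p = 0.102), and Hacd3, an elongation-cycle dehydratase, in the Tsc1-deleted liver (1.13, limma adjusted p = 0.357). Of 24 glycerolipid and droplet genes 23 were tested. Lpcat3, which remodels phospholipids, was at 9.68, 5.81 and 8.87 in the p53-heterozygous and 28.2 to 34.1 in the double-mutant libraries (log2 change 1.83, limma adjusted p = 0.0831). Mogat2 led in the Tsc1-deleted against the p53-heterozygous liver (1.88, limma adjusted p = 0.175) and Lpin3 between the other pair (0.80, limma adjusted p = 0.398).

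Among 11 uptake and binding genes, Fabp1, the abundant fatty acid binding protein of hepatocytes, was at 3926, 4255 and 986 in the Tsc1-deleted and 138.5, 1184 and 335.2 in the double-mutant libraries (log2 change -2.74, SE 0.85, limma adjusted p = 0.398). The fatty acid transporter gene Slc27a4 led in double-mutant minus p53-heterozygous livers (log2 change 1.61, limma adjusted p = 0.0844) and Fabp2 in the Tsc1-deleted liver (2.74, limma adjusted p = 0.301).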

How the data were processed

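RNA was isolated with TRIzol, depleted of ribosomal RNA and sequenced as 50-cycle single reads, per the labels' protocols. The submitters' processing notes name cutadapt, STAR, StringTie and mm9, whose versions the sources used here do not give. The header names no unit, and the authors' values were read as FPKM because they are not whole and their totals differ between libraries. Of 52550 identifiers, 52403 matched GENCODE mouse release 21, which gave symbols, biotypes and lengths.

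FPKM were multiplied to bring 21806 nuclear protein-coding genes to an equal total in each library. Genes with at least 1 rescaled FPKM in at least 3 libraries were fitted with limma 3.58.1 (R 4.3.3; trend and robust steps) on log2(rescaled FPKM + 1), a pseudocount of 1, with only the 6 libraries compared, because the p53-heterozygous libraries spread more than the others. Adjusted p values are Benjamini-Hochberg over 12591 genes. Tables and figures used Python 3.11.15, pandas 2.3.3, numpy 2.4.6 and matplotlib 3.10.9. Estimated reads cover counting depth only.

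The genes, lists, roles, tests and alternatives were chosen with earlier results of these data known. All 33 genes are accounted for, and full statistics were planned for genes that pass and the 4 with the lowest p in each comparison. From each pathway list the gene with the lowest p is named per comparison. One marker symbol, Tf, matched no identifier. The models of Srebf1, Mlxipl, Pklr, Elovl6, Elovl3, Agpat2, Mogat1, Plin4 and Cideb overlap a gene on the opposite strand, and reads of such pairs cannot be told apart. The highest such gene among protein-coding partners of the droplet genes is Nop9, on the opposite strand of Cideb (12.7 FPKM at most), and the sources used here do not state whether counting used strand.

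Replicate numbers are shared between groups. The deviations of same-numbered Tsc1-deleted and p53-heterozygous libraries correlated at 0.172, 0.113 and 0.349 across genes, each over 0.1, so the blocked count is given beside the main one there. A differently numbered pair (1 with 2) reached 0.304. All printed changes and p values come from fits without the block. In each of the other comparisons 1 pair was negative (-0.107 and -0.199). Alternatives are given in the closing section.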

Additional observations from a re-analysis of the deposited data

How the results depend on the processing

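Between double-mutant and Tsc1-deleted livers 0 of 28 genes of the set passed under any of the 19 alternatives run, the Xist covariate included. The number of all genes called was 3, 37 with a replicate block, and 4 to 700 leaving out 1 library, with 700 without Tsc1-deleted library 3.

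For the double mutant minus p53-heterozygous, genes of the set called were 0 in the main test, 10 on values as deposited, 2 with all 9 libraries in 1 fit, 20 with both choices, 12 without p53-heterozygous libraries 1 and 2, and 0 to 8 leaving out 1 library, with 8 without library 3 (8 at an unadjusted p under 0.05 in the main test). All genes called were 53 (39 higher, 14 lower), 1127 as deposited (1103 and 24), 92 with median-ratio factors (59 and 33), 102 with quantile normalization (58 and 44), 81 without the 100 highest genes in the total, 16 and 9 with pseudocounts of 0.1 and 5, 6 with no filter, 32 with a filter at 5 FPKM, 597 with all 9 libraries, 3892 with both choices, 11 with a replicate block, 8 with the Xist covariate, 3347 without libraries 1 and 2, and 0 to 3076 leaving out 1 library. Without libraries 1 and 2 all 28 estimates were positive: Mlxipl turned from -0.25 to 2.86 and passed, and Thrsp (-2.12 to 0.49), Lpin1 (-1.02 to 0.63), G0s2 (-0.70 to 0.64) and Elovl5 (-0.11 to 0.45) turned without passing.

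For Tsc1-deleted minus p53-heterozygous, 0 of the 28 were called in the main test. At an unadjusted p under 0.05 there were 7, against 12.7% of all genes. All 9 libraries in 1 fit as deposited gave 19, where 1470 of 12014 genes were called. Leaving out 1 library gave 0 to 1, with 1 without p53-heterozygous library 3, where 2.57% of all genes rose and 3.07% fell. Without p53-heterozygous libraries 1 and 2 the 28 had a median log2 change of 1.97, and all tested genes one of -0.598. All genes called were 7, 20 as deposited, 4 without the 100 highest genes, 2 with a pseudocount of 5, 4 with no filter, 140 with all 9 libraries, 1470 with both choices, 2 with a replicate block, 4 with the Xist covariate, 3678 without libraries 1 and 2, and 2 to 711 leaving out 1 library. The cause of these moves was not tested. The replicate block changed no call of the set in any comparison, and by the labels the samples of different groups share only a number. The p53-heterozygous results are limited by the low nuclear read numbers of libraries 1 and 2 and by the low hepatocyte markers of library 3.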

Other observations

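Among genes outside the set, chosen here after their values were seen, double-mutant library 2 was also the highest of its group for a pair with roles in hepatic lipid handling. Insig1, the INSIG gene that SREBP itself activates, was at 21.1, 113.2 and 52.8 rescaled FPKM in double-mutant libraries 1 to 3 and at 112.6, 67.0 and 58.2 in the Tsc1-deleted libraries. Fabp2, a fatty acid binding protein, was at 14.8, 118.6 and 17.4 against 102.1, 73.8 and 23.7. The genotypes overlapped in both genes.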
